A study of Caenorhabditis elegans with 6 samples.

Results

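Inositol synthesis and inositol trisphosphate (IP3) signalling were followed through 10 genes in sorted coelomocytes, the scavenger cells of the body cavity of Caenorhabditis elegans. The genes were taken by name from a table of 21882 genes, and all 10 had a row and at least 1 count. They are the synthase gene inos-1, the monophosphatase gene ttx-7, the transporter genes hmit-1.1 and hmit-1.2, the phospholipase C genes egl-8, plc-1 and plc-3, the IP3 receptor gene itr-1, the IP3 kinase gene lfe-2 and the IP3 phosphatase gene ipp-5. They were chosen by name and role, with their counts and fold changes between the groups already known. Their fold changes therefore describe these libraries, and each adjusted p-value gives the gene's place in a test over the whole table, not independent evidence for the set.

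The libraries hold poly(A) RNA of L3 larvae and fall into 2 groups of 3. Control cells came from strain BAT2087, which carries glp-4(bn2) and barIs177, a GFP reporter driven by the unc-122 promoter. CHE-1 cells came from strain BAT2088, which also carries barIs115, where that promoter drives FLAG-tagged che-1 beside a red marker under the myo-2 promoter. CHE-1 is the zinc finger factor that specifies the ASE gustatory neurons. Both strains were germline-deficient because they were raised at 25°C, the restrictive temperature of glp-4(bn2), and both were sorted on GFP. Each transgene is 1 integrated insertion line, so an effect of the insertion cannot be told apart from one of CHE-1.

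In cells, inositol is made from glucose 6-phosphate by inositol phosphate synthase and freed by inositol monophosphatase, or it is taken up by transporters. Built into a membrane lipid and phosphorylated, it becomes the substrate that phospholipase C splits into IP3 and diacylglycerol. IP3 opens the IP3 receptor in the endoplasmic reticulum and lets calcium out of the store, and a kinase and a phosphatase remove it. In C. elegans the receptor is known for the defecation rhythm, pharyngeal pumping and ovulation, and the phospholipase egl-8 for transmitter release.

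Library totals ran from 21353072 to 58325279 counts, with 7006 to 11297 genes above 0, and control library 2 and CHE-1 library 1 were the shallowest. The targeted gene che-1 was counted 3, 0 and 1 times across the controls, against 10744, 50917 and 42227 times with the transgene. The 7 coelomocyte markers summed to 15923 to 21348 CPM (counts per 1000000, scaled by TMM factors) in control and 4309 to 6234 CPM in CHE-1 libraries, and none was at 0 throughout a group. The 10 neuronal markers summed to 274.6 to 451.3 and to 5924 to 6908 CPM. The 6 body wall muscle markers other than unc-54, whose 3' UTR the transgene carries, summed to 873.7 to 1150 and to 2354 to 3341 CPM. Of these 6, mup-2, lev-11 and tni-3 were called higher. For myo-3, unc-15 and unc-27 the groups overlapped without passing (edgeR adjusted p 0.607, 0.709 and 0.998). The gene unc-54 itself was called lower (log2 fold change -0.85, edgeR adjusted p 0.0111), and with it the 7 markers summed to 36061 to 37981 and to 17524 to 25414 CPM. Intestinal, pharyngeal muscle, hypodermal, germline, gonad sheath and spermatheca, and glial marker sums overlapped between the groups. In bulk libraries, fewer cells of a type and less RNA per cell cannot be told apart.

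Coelomocytes with CHE-1 held less inos-1 and ttx-7, the genes for making inositol, and far more itr-1, the gene of the receptor that IP3 opens. The transcripts of inos-1 and ttx-7 were each about 2 times as abundant in control cells, and itr-1 was 121.8 times as abundant in CHE-1 cells. For the phospholipase gene egl-8 and the kinase gene lfe-2 the groups overlapped. The genes plc-3 and ipp-5 had higher values in every CHE-1 library without passing the test. A call needed an adjusted p under 0.05 from edgeR's quasi-likelihood test, run over 9112 genes. Of the 10 genes 9 could be tested; hmit-1.2 had too few counts. Among the 9, 1 was called higher, 2 were called lower and 6 did not pass. Over all tested genes 5.06% were called, 3.37% higher and 1.69% lower. The median log2 fold change (CHE-1 over control) was 0.09 for the 9 genes and 0.04 for all tested genes. The groups did not overlap for 5 of the 9, and for 23.4% of all tested genes. Other tools called more of the table: DESeq2 11.6% (7.26% higher, 4.36% lower), edgeR with adjusted deviances 11.5% (7.65% and 3.9%), limma-voom 7.99% (5.06% and 2.93%) and edgeR without a count filter 5.65% (3.67% and 1.97%). Since this contrast was in view when the genes were chosen, nothing is read from these shares.

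**Figure D1:**
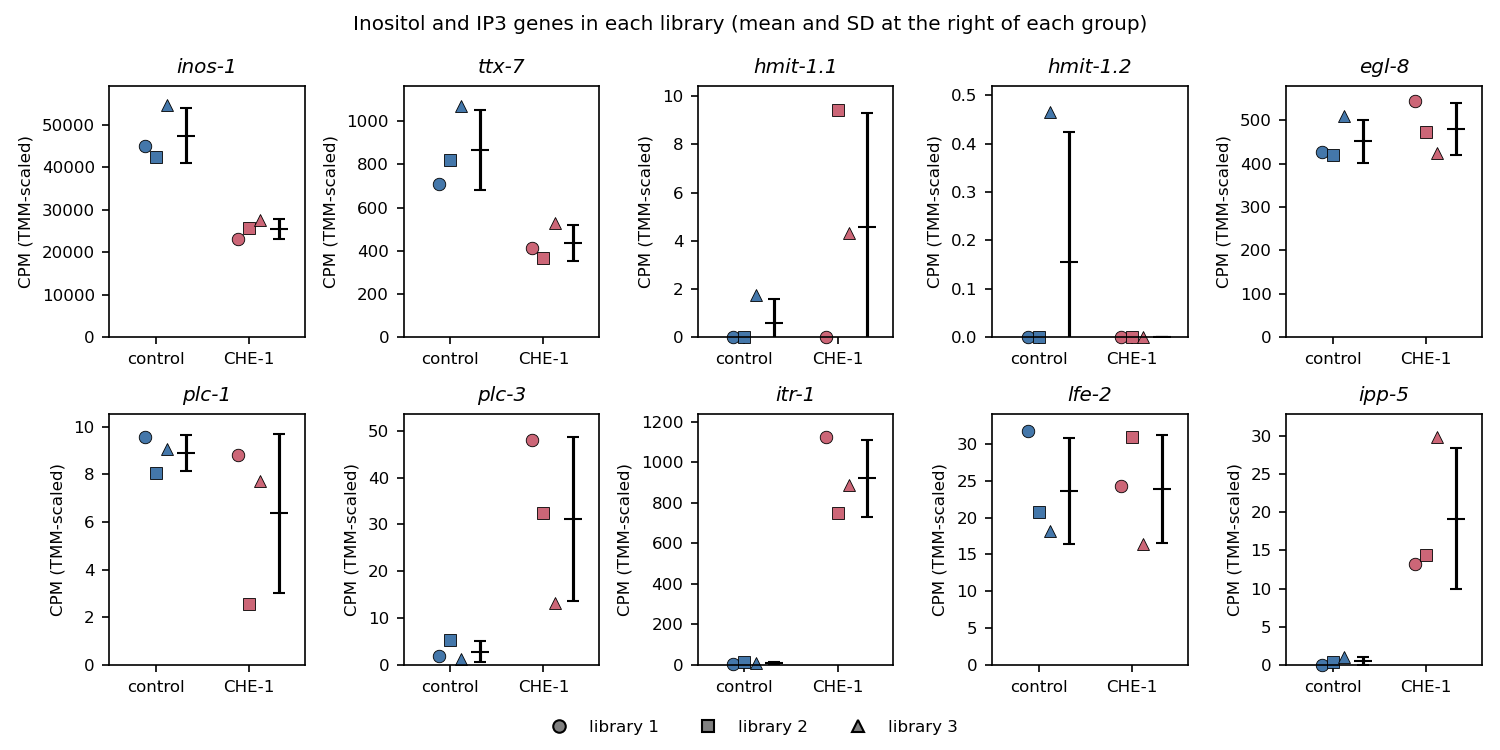
TMM-scaled CPM of the 10 genes in each library, with the mean and SD (n = 3) of each group drawn as bars that stop at 0. The 3 control libraries lie above the 3 CHE-1 libraries for inos-1 and ttx-7, and below them for plc-3, itr-1 and ipp-5.

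The synthase gene inos-1 (WBGene00012148, WBcel235 chromosome II, 11698317 to 11700300, minus strand, 3 exons) encodes the enzyme that commits glucose 6-phosphate to inositol. It was among the most abundant transcripts of the cells. It held 45059, 42545 and 54791 CPM across the controls, against 23120, 25709 and 27716 CPM with CHE-1. The groups did not overlap, and the lowest control library was well above the highest CHE-1 library. Its log2 fold change was -0.90 (SE 0.14; edgeR adjusted p 0.00352). It took up 4.47% ± 0.541 of all counts without CHE-1 and 2.695% ± 0.270 with it (SD, n = 3 each). Ranked by CPM per kilobase of exon over all genes, it stood at rank 2 in control library 3 and at rank 3 in the 5 other libraries.

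The gene ttx-7 (WBGene00008765, chromosome I, 7300999 to 7302975, minus strand) encodes inositol monophosphatase, which frees inositol from its phosphate and is inhibited by lithium. In worms it is known for its part in the RIA interneuron in thermotaxis. It stood at 711.5, 820.4 and 1072 CPM across the controls, against 411.2, 366.7 and 526.8 CPM in the CHE-1 libraries. The groups did not overlap, though control library 1 and CHE-1 library 3 came near to each other. The log2 fold change was -0.997 (SE 0.22; edgeR adjusted p 0.0229). It no longer passed without control library 3 (adjusted p = 0.0924), without CHE-1 library 2 (0.101) or without both shallowest libraries (0.108). Its rank by CPM per kilobase over all genes was 148 to 178 in control and 244 to 286 in CHE-1 libraries.

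The genes of the synthesis route were lower in the libraries in which coelomocyte markers were lower too: of 7 such markers 4 were called lower, and their sum was 15923 to 21348 CPM against 4309 to 6234 CPM. The marker unc-122, whose promoter drives the reporter, overlapped between the groups. The part of these differences in the inos-1 and ttx-7 results was not tested. Per kilobase of exon, inos-1 was 42.2, 34.5 and 34.03 times as abundant as ttx-7 in the control libraries. In the CHE-1 libraries the ratio was 37.4, 46.7 and 35.0. The ranges of this ratio overlapped between the groups.

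The transporter genes hmit-1.1 and hmit-1.2 encode proton-coupled inositol carriers and lie in tandem on the plus strand of chromosome V (18516789 to 18523875 and 18524760 to 18529156), 884 bases apart. Very little of either was found. For hmit-1.1 the counts were 0, 0 and 93 across the controls, against 0, 594 and 226 with CHE-1. The groups overlapped at 0, and the log2 fold change of 2.98 (SE 3.49) did not pass (edgeR adjusted p 0.984). Leaving out 1 library at a time gave 1.89 to 10.59, the highest value coming without control library 3, the only control library with a count; against controls at 0 the fitted value is no measure of size. For hmit-1.2 there were 25 counts, all in control library 3, and 0 in the CHE-1 libraries. A floor of 3 counts in each CHE-1 library corresponds to a mean level of 0.0803 CPM, against a control mean of 0.155 CPM. For a count of 0 over the 3 libraries together the bound would be lower. The remaining transporter gene, hmit-1.3, was at 1.21 ± 1.39 CPM without CHE-1 and 1.38 ± 2.38 CPM with it (SD, n = 3 each).

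**Figure D2:**
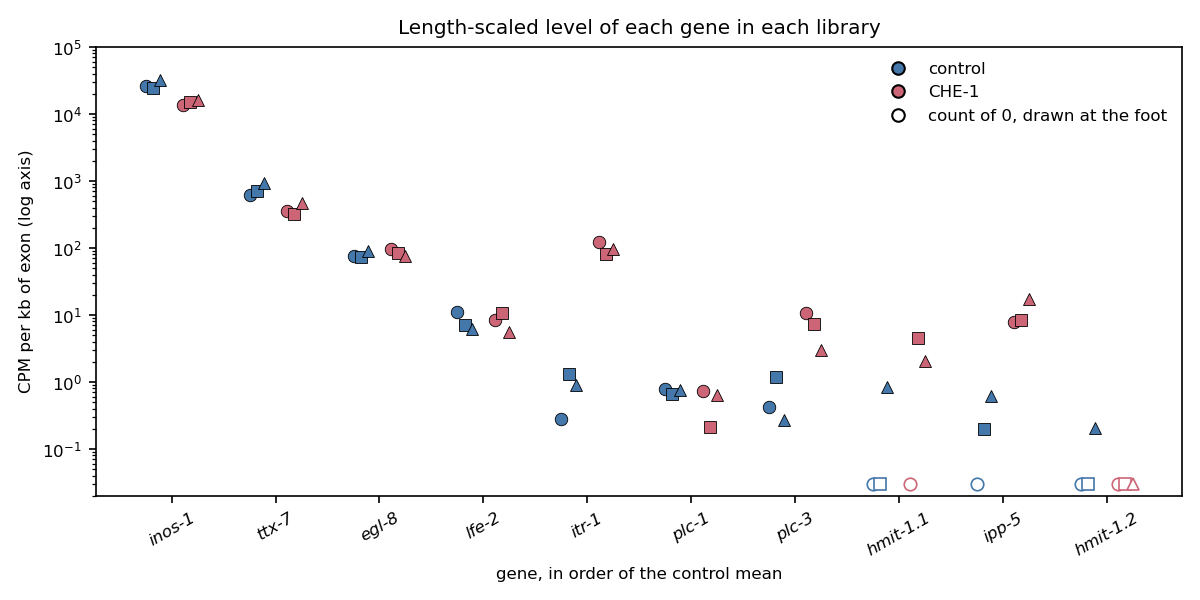
CPM per kilobase of exon of the 10 genes in each library on a log axis, in order of the control mean; open symbols at the foot mark a count of 0. By group means, the order inos-1, ttx-7, egl-8, lfe-2 in control gives way to inos-1, ttx-7, itr-1, egl-8 in CHE-1 libraries. In CHE-1 library 2 egl-8 lay above itr-1, at 84.03 against 81.82 CPM per kilobase.

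Levels of different genes were compared per kilobase of exon. In control cells the order was inos-1, ttx-7, egl-8 and lfe-2, at 27676 ± 3771, 760.1 ± 161.9, 80.3 ± 8.82 and 8.10 ± 2.47 CPM per kilobase (SD, n = 3). The ranges of these 4 did not overlap with each other, and lfe-2 lay above all genes that follow. Below them itr-1, plc-1, plc-3, hmit-1.1, ipp-5 and hmit-1.2 all had means under 1 CPM per kilobase, and each overlapped its neighbour in the order. In CHE-1 cells itr-1 came in place 3 at 100.3 ± 20.6 CPM per kilobase, where its range overlapped that of egl-8 at 85.4 ± 10.7. The next were ipp-5, lfe-2, plc-3 and hmit-1.1, at means of 11.2, 8.21, 7.05 and 2.19 CPM per kilobase with overlapping ranges. The gene plc-1 was at 0.524 ± 0.274.

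The gene egl-8 (WBGene00001177, chromosome V, 20818 to 43704, plus strand, 25 annotated transcripts) encodes the phospholipase C beta that the G protein EGL-30 activates. It was the main phospholipase C transcript in both groups. Its levels were 427.2, 419.7 and 509.2 CPM across the controls, against 544.7, 473.2 and 424.7 CPM in the CHE-1 libraries. The groups overlapped, and the log2 fold change was 0.09 (SE 0.19; edgeR adjusted p 0.998). This value changed sign in 4 of the alternatives, within -0.12 to 0.25 over all of them. The G protein gene egl-30 itself was at 693.5 ± 134.1 CPM without CHE-1 and 763.3 ± 151.9 CPM with it (log2 fold change 0.14, adjusted p = 0.998).

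The gene plc-1 (WBGene00004036, chromosome X, 10794857 to 10838650, minus strand) encodes phospholipase C epsilon, known in worms for the spermatheca. It was rare, at 9.56, 8.05 and 9.06 CPM across the controls, against 8.79, 2.57 and 7.71 CPM in the CHE-1 libraries. CHE-1 library 2 stood low and the other libraries overlapped. The log2 fold change was -0.48 (SE 1.55; edgeR adjusted p 0.998).

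The gene plc-3 (WBGene00004038, chromosome II, 10222877 to 10229440, plus strand) encodes phospholipase C gamma, the form that receptor tyrosine kinases activate. It was counted 95, 127 and 65 times across the controls, or 1.87, 5.33 and 1.21 CPM. In the CHE-1 libraries it had 1059, 2044 and 688 counts, or 48.0, 32.5 and 13.1 CPM. All 3 CHE-1 libraries lay above all control libraries, with a wide spread within the CHE-1 group. The log2 fold change of 3.48 (SE 0.95) did not pass (edgeR adjusted p 0.0663). It passed in DESeq2 (0.00144), in edgeR with adjusted deviances (0.00175), without a count filter (0.0324), without control library 2 (0.0203) and without CHE-1 library 3 (0.0470). Over all alternatives the log2 fold change stayed between 3.03 and 4.28, and the adjusted p between 0.00144 and 0.327.

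The rest of the phospholipase C family was described from a list written for the pathway. The gene plc-2, which encodes another phospholipase C of the beta class, was at 85.4, 143.0 and 91.8 CPM across the controls, against 1.95, 1.64 and 0.210 CPM in the CHE-1 libraries. The groups did not overlap, and the log2 fold change was -6.42 (SE 0.81; edgeR adjusted p 0.00113). The phospholipase C delta gene plc-4 had a log2 fold change of 0.02. The phospholipase C-like gene pll-1 was at 0, 0 and 4.68 CPM without CHE-1 and 60.4, 29.9 and 17.1 CPM with it, without passing (edgeR adjusted p 0.517). It passed in edgeR with adjusted deviances (0.000758) and without control library 3 (0.00101), which leaves the controls at 0.

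Per kilobase of exon, egl-8 made up 57.3% ± 3.76 of the family in control and 68.6% ± 3.94 in CHE-1 libraries (SD, n = 3 each). The share of plc-2 was 26.3% ± 7.65 in control and 0.326% ± 0.221 in CHE-1 cells. The share of plc-3 was 0.455% ± 0.355 and 5.36% ± 2.28, and that of pll-1 was 0.301% ± 0.521 and 7.88% ± 3.65. Each of these 4 shares had ranges that did not overlap between the groups, while the shares of plc-1 and plc-4 overlapped. Shares of a common total depend on each other, and the egl-8 level in CPM overlapped between the groups. Within a library, plc-2 was 41.0 to 115.8 times as abundant as plc-3 in control cells, and plc-3 was 12.98 to 40.9 times as abundant as plc-2 in CHE-1 cells. The summed level of the 6 genes overlapped between the groups, at 140.1 ± 11.1 and 125.3 ± 22.1 CPM per kilobase.

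**Figure D3:**
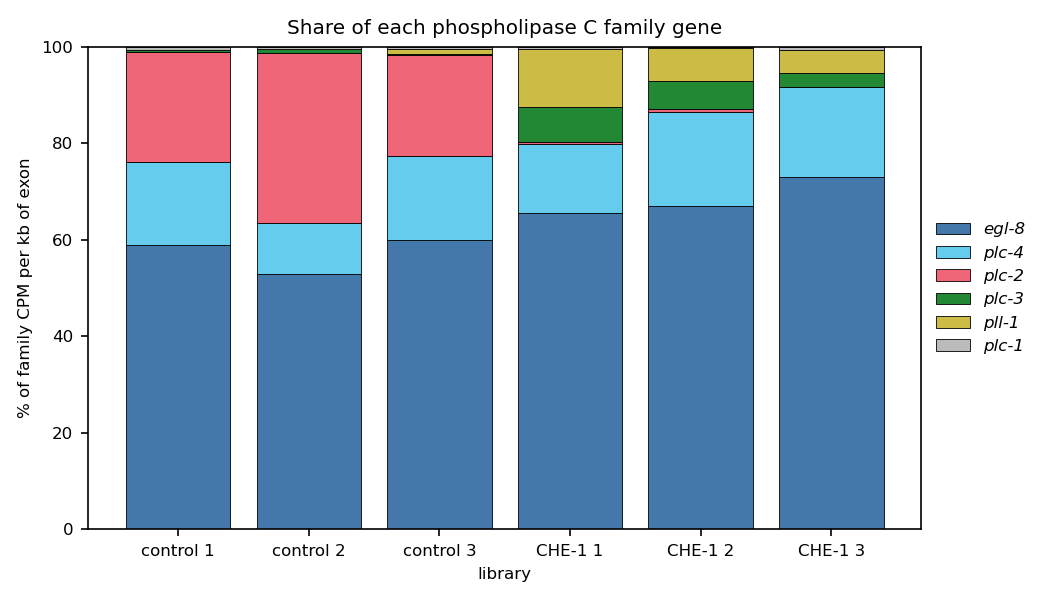
Share of each of 6 phospholipase C family genes in the summed CPM per kilobase of exon, 1 bar per library. In each library egl-8 was the largest part; plc-2 filled 21% to 35.1% of the control bars and at most 0.456% of the CHE-1 bars, where plc-3 and pll-1 appear.

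The gene itr-1 (WBGene00002173, chromosome IV, 7675174 to 7696930, plus strand, 6 annotated transcripts) encodes the IP3 receptor of the worm. It was counted 133, 285 and 437 times across the controls, against 24833, 47327 and 46570 times with CHE-1. This is 2.61, 12.0 and 8.14 CPM against 1125, 751.7 and 888.3 CPM. The groups stood far apart, and the lowest CHE-1 library was library 2. The log2 fold change was 6.94 (SE 0.63; edgeR adjusted p 0.000739), and it stayed between 6.48 and 7.34 over the 13 alternatives without pairing of libraries, all of them called. The control libraries differed among themselves more than the CHE-1 libraries did, with coefficients of variation of 62.1% and 20.5%, where the medians over all tested genes were 47.6% and 50.0%.

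The level of itr-1 was set beside cell type markers, including those of tissues where the receptor is known. The 9 intestinal markers summed to 229.1, 306.0 and 301.6 CPM across the controls, against 211.9, 920.1 and 655.1 CPM with CHE-1. CHE-1 libraries 2 and 3 lay above all controls in this sum and CHE-1 library 1 below them, and edgeR called 0 of the 9 markers, with 1 at an unadjusted p under 0.05. DESeq2 and limma-voom also called 0, and edgeR with adjusted deviances called 1. The 6 pharyngeal muscle markers summed to 566.7, 64.05 and 156.3 CPM across the controls, against 95.2, 106.4 and 17.95 CPM with CHE-1, and these ranges overlapped. So did those of the 4 gonad sheath and spermatheca markers, at 232.7, 255.4 and 248.4 against 244.6, 321.2 and 225.5 CPM. Of the 2 tested, fln-1 was higher and let-502 lower in each CHE-1 library, without passing (edgeR adjusted p 0.42 and 0.251). Of 7 body wall muscle markers mup-2, lev-11 and tni-3 were called higher and unc-54, whose 3' UTR the transgene carries, lower. The groups overlapped for myo-3, unc-15 and unc-27, which did not pass. Of 10 neuronal markers 8 were called higher, and their sum was 274.6 to 451.3 CPM against 5924 to 6908 CPM. Of the other neuronal markers, unc-31 was higher in each CHE-1 library without passing (adjusted p = 0.144), and unc-119 was lower in each, at 120.3 ± 21.1 against 77.6 ± 3.08 CPM (log2 fold change -0.63, adjusted p = 0.292). The part of any of these markers in the itr-1 result was not tested.

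**Figure D4:**
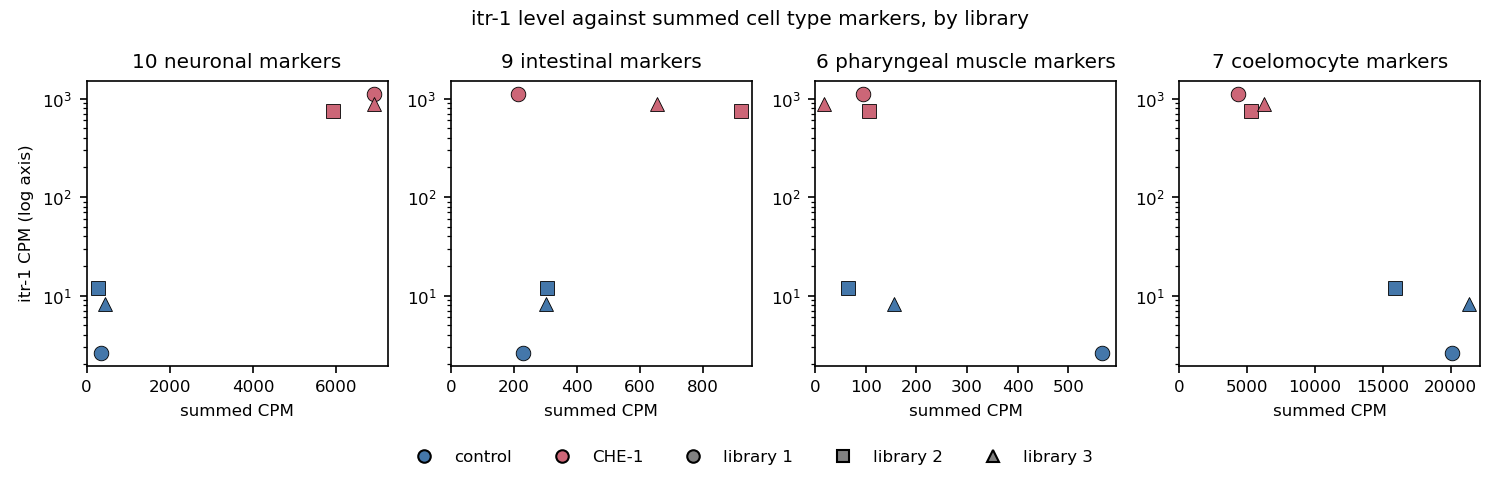
CPM of itr-1 on a log axis against the summed CPM of 4 sets of cell type markers, 1 point per library. The CHE-1 libraries lie apart from the control libraries in the neuronal and coelomocyte sums, and not in the intestinal and pharyngeal sums.

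The other calcium release channel of the endoplasmic reticulum, the ryanodine receptor gene unc-68, was at 33.1 ± 24.7 CPM without CHE-1 and 80.7 ± 37.8 CPM with it. The groups overlapped, and its log2 fold change of 1.29 did not pass (edgeR adjusted p 0.295). It passed without a count filter (0.0408), in edgeR with adjusted deviances (0.0467) and without control library 1 (0.025). Per kilobase of exon, itr-1 was 0.0751, 1.33 and 0.653 times as abundant as unc-68 in the control libraries. In the CHE-1 libraries it was 28.3, 10.8 and 31.8 times as abundant, and the ranges of that ratio were separate. The calcium pump gene sca-1, which refills the store, was at 1201 ± 112.7 and 1558 ± 125.0 CPM (log2 fold change 0.37, adjusted p = 0.324, and 0.0248 in DESeq2). Per kilobase it exceeded itr-1 by 205.0 to 1031 times in control cells and by 3.05 to 5.07 times in CHE-1 cells.

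IP3 is removed along 2 routes, and the kinase and the phosphatase genes are described in turn. The kinase gene lfe-2 (WBGene00002979, chromosome I, 5027155 to 5041160, plus strand) was at 31.7, 20.8 and 18.1 CPM across the controls, against 24.2, 30.99 and 16.4 CPM in the CHE-1 libraries. The groups overlapped, with control library 1 the highest and CHE-1 library 3 the lowest, and the log2 fold change was 0.02 (SE 0.56; edgeR adjusted p 0.998). With an SE of this size, a change of about 1 log2 unit in either direction was not detectable.

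The phosphatase gene ipp-5 (WBGene00002146, chromosome X, 6031469 to 6034515, plus strand) encodes an inositol polyphosphate phosphatase that acts on IP3. It was counted 0, 8 and 56 times across the controls, or 0, 0.336 and 1.04 CPM. In the CHE-1 libraries it had 292, 909 and 1563 counts, or 13.2, 14.4 and 29.8 CPM. All CHE-1 libraries lay above all control libraries, and CHE-1 library 3 was the highest. The log2 fold change of 5.37 (SE 1.96) did not pass (edgeR adjusted p 0.202). It passed in DESeq2 (0.00243) and in edgeR with adjusted deviances (0.00328), and not in limma-voom (0.0879); over all alternatives the adjusted p ran from 0.00243 to 0.615. An exon of hsp-25 overlaps ipp-5 on the opposite strand, at 62.0 to 70.2 CPM without CHE-1 and 75.2 to 131.1 CPM with it. The libraries are strand-specific, and whether counting used strand was not given in the sources used here. In control library 1 hsp-25 had 3208 counts and ipp-5 had 0. The part of hsp-25 reads in the ipp-5 counts was not tested, and ipp-5 counts are uncertain to that extent.

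The genes of the removal routes were also set against each other within each library. Per kilobase of exon, lfe-2 was 36.5 and 10.2 times as abundant as ipp-5 in control libraries 2 and 3, and ipp-5 had no count in control library 1. In the CHE-1 libraries the ratio was 1.08, 1.26 and 0.323. Set against the receptor, lfe-2 exceeded itr-1 by 38.4, 5.50 and 7.03 times in the control libraries. In the CHE-1 libraries itr-1 exceeded lfe-2 by 14.7, 7.68 and 17.2 times. The ranges of this ratio did not overlap between the groups.

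A list of 56 other genes of the pathway was written with results of these data known, and 51 of its names matched a row. Of the 49 tested, 8 were called higher and 3 lower, against the 5.06% called over all tested genes, and their median log2 fold change was 0.28. The list shares no gene with the 10 above. The calls fell mainly in the diacylglycerol branch, which is the other product of phospholipase C, and among calcium sensors.

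In the diacylglycerol branch 5 of 10 tested genes were called higher, 1 lower and 4 did not pass. The protein kinase D gene dkf-2 went from 36.4 ± 7.15 to 195.4 ± 33.1 CPM (SD, n = 3 each; log2 fold change 2.42, edgeR adjusted p 0.000409). The synaptic vesicle priming gene unc-13, whose protein binds diacylglycerol, went from 104.2 ± 30.1 to 315.2 ± 87.4 CPM (1.596, adjusted p = 0.00865). The conventional protein kinase C gene pkc-2 rose by a log2 fold change of 2.47 (adjusted p = 0.0179). The diacylglycerol kinase gene dgk-1 and the protein kinase C gene pkc-1 were close to the threshold, with log2 fold changes of 2.66 and 0.90 (adjusted p = 0.0448 and 0.0468). The gene rgef-1, for a Ras exchange factor, fell with a log2 fold change of -1.42 (adjusted p = 0.00677). The gene dgk-1 no longer passed without control library 1 (adjusted p = 0.0720) or 3 (0.0775) or CHE-1 library 1 (0.123), 2 (0.101) or 3 (0.107). With DESeq2 size factors in edgeR or with library totals alone dgk-1 also missed the threshold (0.062 and 0.0594). The pkc-1 call was lost without control library 1 (0.235), 2 (0.0584) or 3 (0.116) or CHE-1 library 2 (0.154) or 3 (0.128). The call of pkc-2 was lost without control library 1 (0.0536) or CHE-1 library 2 (0.0690). With each group's shallowest library left out, pkc-1 (0.0665), unc-13 (0.0914) and rgef-1 (0.0515) did not pass.

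Among 11 genes of the calcium store and calcium sensing, 3 were called higher and 8 did not pass. The calmodulin gene cmd-1 went from 382.6, 414.3 and 468.1 CPM in the control libraries to 982.9, 1210 and 1362 CPM in the CHE-1 libraries (log2 fold change 1.49; SE 0.19; edgeR adjusted p 0.000766). The calcineurin B gene cnb-1 went from 62.6 ± 25.4 to 177.3 ± 4.37 CPM (1.50, adjusted p = 0.0247). It missed the threshold without control library 3 (0.0538), CHE-1 library 2 (0.0621) or both shallowest libraries (0.0556). The calcium and calmodulin dependent kinase gene unc-43 had a log2 fold change of 0.84 (adjusted p = 0.0304). That call was lost without any 1 of the 6 libraries, with an adjusted p from 0.0618 without CHE-1 library 1 to 0.190 without control library 1. The store proteins calreticulin (crt-1) and calnexin (cnx-1), chosen after their values were seen, missed the threshold at log2 fold changes of -0.72 and -0.70 (adjusted p = 0.0727 and 0.0843), with no overlap between the groups. Both were called lower by DESeq2 (0.00691 and 0.00121), by edgeR with adjusted deviances (0.00374 and 0.0466) and by limma-voom (0.000229 and 0.0446). The gene crt-1 was also called without a count filter (0.00271), without control library 2 (0.0103), without CHE-1 library 1 (0.024) and without both of these (0.00415). In the other direction tax-6, of the same list, was at 277.0 ± 30.7 against 453.6 ± 89.6 CPM, with no overlap between the groups. Its log2 fold change of 0.71 missed the threshold (edgeR adjusted p 0.106). It was called higher by DESeq2 (0.00637), by edgeR with adjusted deviances (0.0324) and by limma-voom (0.0344).

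The steps that make and convert the lipid substrate gave 1 call. Of 9 tested phosphoinositide phosphatases the synaptojanin gene unc-26 was lower, at 870.4 ± 47.7 against 371.9 ± 66.1 CPM (SD, n = 3 each; log2 fold change -1.23, edgeR adjusted p 0.00337). Of 7 phosphoinositide kinases, 3 genes of phosphatidylinositol synthesis and transfer and 4 genes of the Gq input, edgeR called 0, with 5 of these 14 at an unadjusted p under 0.05. DESeq2 called 3 of them (cdgs-1, ppk-2 and rgs-6), and limma-voom and edgeR with adjusted deviances called 1 each, rgs-6. The kinase gene ppk-1, which makes the substrate of phospholipase C, was at 102.9 ± 7.03 against 181.9 ± 58.1 CPM (log2 fold change 0.82, adjusted p = 0.163). The synthesis gene cdgs-1 was at 64.7 ± 5.56 against 117.8 ± 23.0 CPM (0.86, adjusted p = 0.133). The inositol polyphosphate kinase gene ipmk-1 was at 3.05 ± 3.02 against 3.71 ± 4.36 CPM, with no count in control library 2 and CHE-1 library 1.

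**Figure D5:**
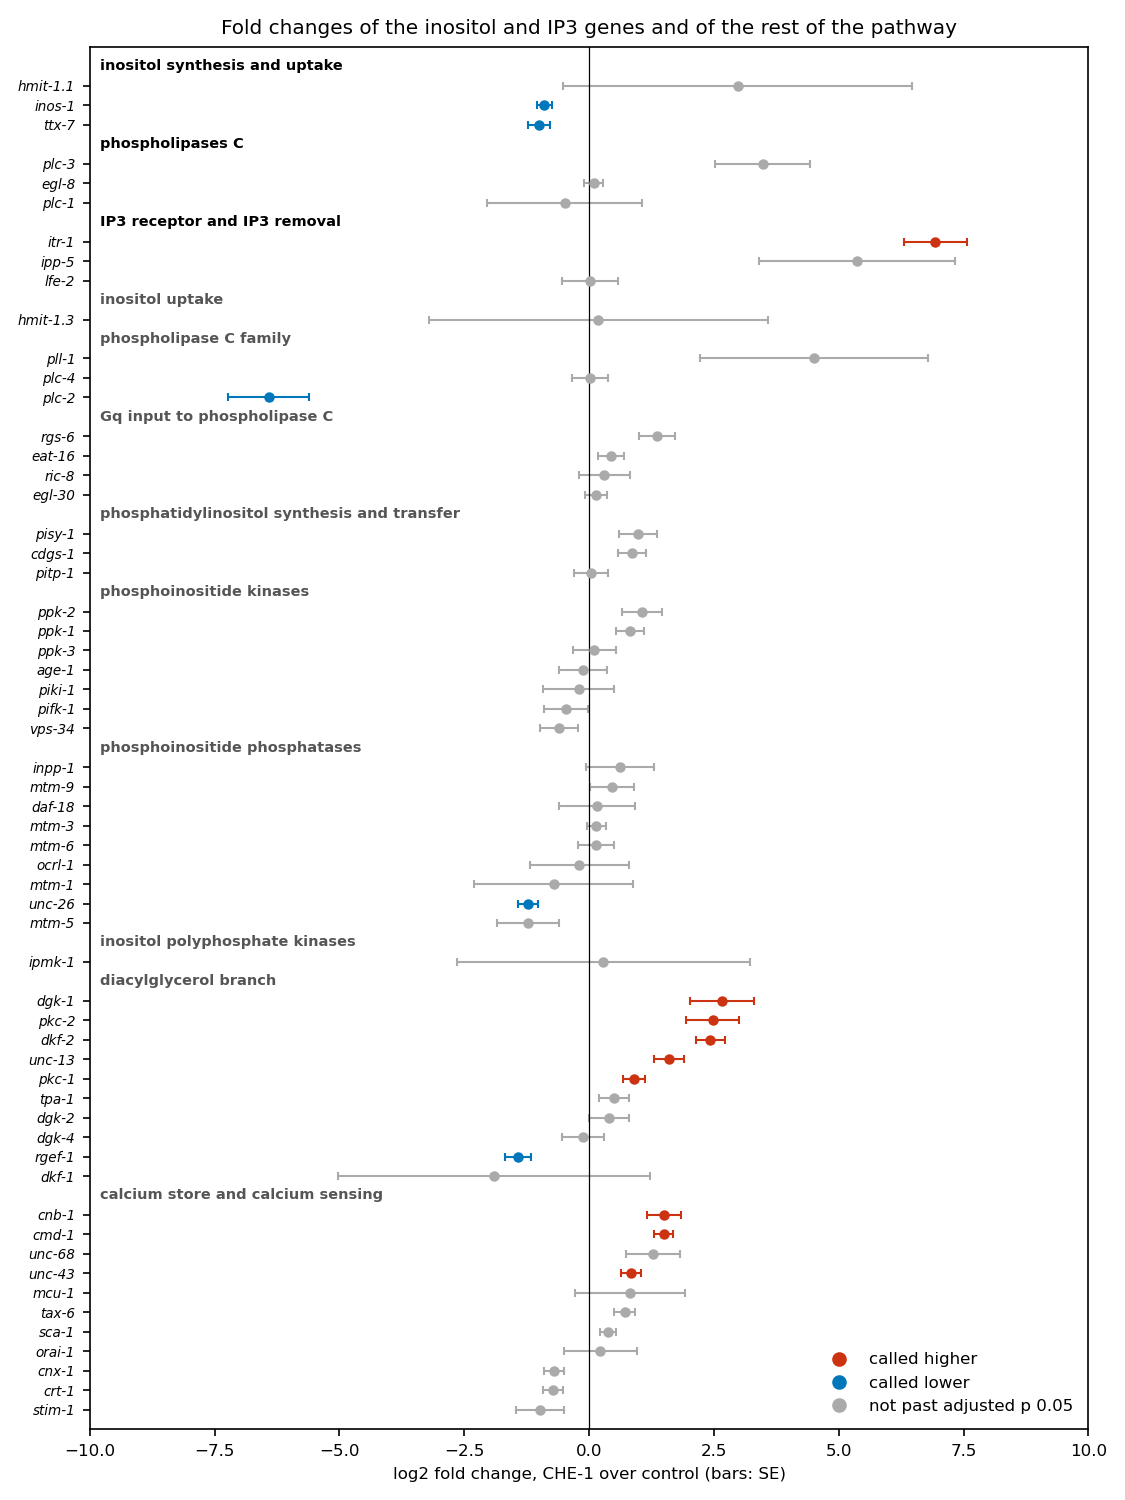
Log2 fold change (CHE-1 over control) with SE for the 9 tested genes (black headings) and the 49 tested genes of the rest of the pathway (grey headings), coloured by the call in edgeR's quasi-likelihood test. The values of itr-1 at 6.94 and plc-2 at -6.42 lie farthest from 0 among the called genes.

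For each called gene the 3 tested genes with the most similar profile over the 6 libraries were named, by Pearson correlation of log2(CPM + 0.5) as a description. The libraries are the same for all genes and fall into 2 groups, so any gene that differs between the groups correlates with these. For inos-1 they were M01F1.4, aqp-10 and K02E7.11, at r of 0.999, 0.995 and 0.995. For ttx-7 they were aco-1, F23H11.7 and wdr-37, at 0.993, 0.990 and 0.987. For itr-1 they were gln-3, F43B10.1 and twk-2, at 0.999, 0.998 and 0.997. Of these, gln-3 went from 742.4 ± 33.1 to 965.1 ± 6.10 CPM without passing, while twk-2 went from 5.55 ± 2.98 to 103.6 ± 14.7 CPM (SD, n = 3 each).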

How the data were processed

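RNA of sorted coelomocytes was sequenced in 6 libraries, 3 per group. The main table deposited by the authors gives estimated counts, which are whole numbers as deposited, so no rounding was needed; the largest all end in 0, as values kept to a limited number of digits do. A further deposited table gives a normalized signal, found to be those counts over a library-wide factor; all 10 genes are in it, and it was not tested. The submitters' processing notes name Salmon 0.13.1, DESeq2 and the build WBcel235 without their roles. The step from transcripts to genes was not given in the sources used here.

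Symbols came from a gene name table, and coordinates and exon lengths from the WBcel235 annotation of Ensembl release 115. All tests used edgeR 4.0.16 in R 4.3.3 (robust glmQLFit with TMM factors and glmQLFTest, two-sided, Benjamini-Hochberg over 9112 genes), with the default filter by group (minimum count 10, minimum total 15). The SE is the absolute log2 fold change divided by the square root of F and is approximate for genes near 0 counts. CPM per kilobase divides by the union of annotated exons, so it depends on which isoforms a cell uses. Alternatives used DESeq2 1.42.0, limma 3.58.1 (voom), other scalings, no count filter and fewer libraries, and a block of adjacent library numbers, which was chosen after seeing the data.

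Members, lists and tests were chosen with earlier results of these data known. Genes named are the 10, che-1, and each called gene of the other lists or, where none was called, the gene with the highest mean. Named too are 3 similar genes for each called member. The genes plc-4, pll-1, ppk-2, rgs-6, unc-122, unc-68, sca-1, crt-1, cnx-1 and tax-6 were added after their values were seen. So were mup-2, lev-11, tni-3, unc-54, myo-3, unc-15, unc-27, unc-31, unc-119, fln-1, let-502 and hsp-25. The labels do not say which libraries came from separate cultures or sorts, so p-values measure only how far these samples vary, and that may be technical. Floors cover counting error only.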

Additional observations from a re-analysis of the deposited data

How the results depend on the processing

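The lower inos-1 and the higher itr-1 were called with all 13 alternatives that paired no libraries, and ttx-7 with 10 of them. With DESeq2 and with edgeR and adjusted deviances 3 of the 10 genes were called higher, where plc-3 and ipp-5 joined itr-1; without a count filter 2 were, and with 1 library left out 1 to 2. The number called lower was 1 to 2 with 1 library left out and 1 when each group's shallowest library was left out. Of the other pathway genes, DESeq2 called 13 higher and 5 lower, limma-voom 5 lower and edgeR with adjusted deviances 5 lower. Without the shallowest libraries 4 were higher, and with 1 library left out 3 to 8 were higher and 3 to 4 lower. Over all genes, DESeq2 called 690 higher and 414 lower, limma-voom 461 and 267, edgeR with adjusted deviances 697 and 355, and edgeR without a count filter 474 and 255; with 1 library left out 234 to 347 were higher and 113 to 179 lower. The cause of these differences was not tested.

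No called gene of the pathway changed sign. Among tested genes that were not called, 16 of 38 other pathway genes and 2 of 6 members changed sign in at least 1 alternative. For egl-8 the log2 fold change was -0.125 without the shallowest libraries and -0.029 to 0.17 with 1 library left out. For lfe-2 it was -0.006 in limma-voom, -0.13 without the shallowest libraries and -0.21 to 0.25 with 1 library left out. Scaling by library totals alone moved the median log2 fold change of all genes from 0.04 to 0.21, and inos-1, ttx-7 and itr-1 kept their calls (-0.73, -0.84 and 7.05). Library names run in adjacent numbers, 1 control and 1 CHE-1 library each, and the labels do not say what the numbers share. Deviations from the group means correlated at 0.073, -0.019 and 0.048 in the 3 adjacent pairs. Control libraries 1 and 3 correlated best with their adjacent CHE-1 library, and control library 2 with a library of another number. With these numbers as a replicate block edgeR called 0 of the 10 genes higher and 2 lower, against 364 and 205 of all genes. The 2 were inos-1 (SE 0.076, adjusted p = 1.14e-05) and ttx-7 (SE 0.151, adjusted p = 0.00118), both with a smaller SE than in the main fit. The gene itr-1 had a log2 fold change of 7.12 there (SE 0.94, adjusted p = 0.102), and itr-1, plc-3 and ipp-5 were the 3 higher genes at an unadjusted p under 0.05. The low counts of hmit-1.1, hmit-1.2 and ipp-5, and the small number of libraries, limit what could be detected for them.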
